A study of Homo sapiens with 15 samples.

Results

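The E2F transcription factors and RB1 were followed through the cell cycle of U2OS cells, a human osteosarcoma line. The set is 9 genes given by name, E2F1 to E2F8 and RB1, and every row of the count tables that carried one of these names was taken. They were 9 of 19531 gene names and held 28 of 68625 counted regions, which lie near transcript ends. Growing cells, which were not synchronised per the protocol, were given 4-thiouridine, a uridine analogue that enters new RNA, and EdU, a thymidine analogue that enters replicating DNA, for 45 minutes. They were fixed with glyoxal and methanol and then sorted on EdU and DNA content, into gates labelled G1, Early_S, Late_S and G2 (also written G2/M), with 3 libraries each. Alkylated 4-thiouridine is copied as if it were C, and a read that shows this change is called a T>C read. Such a read is taken as coming from a transcript built in the pulse. Without alkylation a mean of 1.01% of reads were T>C reads too. A further group of 3 libraries, No_alkylation, did not go through alkylation. Its sorted phase is not given by the labels. They also do not call the libraries of a gate separate cultures, so that p-values measure only the spread between these libraries, which may be technical. All 15 libraries came from 1 cell line with no added gene or drug beyond both analogues, and in such sorted populations fewer cells with a message and less message per cell cannot be told apart.

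E2F proteins bind a short GC-rich DNA element in the promoters of genes for DNA replication and cell cycle entry. E2F1, E2F2 and E2F3 are known as activators, and E2F4 and E2F5 mainly as repressors that act with pocket proteins. RB1 encodes RB, the pocket protein that binds activator E2Fs and silences them until cyclin-dependent kinases phosphorylate it in G1. E2F6 represses without binding RB, within a Polycomb complex, and E2F7 and E2F8 are atypical members that bind DNA without a dimerisation partner and repress E2F targets during S phase. Several E2F genes are themselves E2F targets.

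Promoter windows ran from 250 bases before to 50 after a RefSeq gene start in GRCh38.p14. They were examined for 7 of the 9 members, in 8 windows, with RB1 covered only at an internal start. The remaining members were left out, so whether their promoters hold a match was not tested. The windows of E2F1, E2F2, E2F3 and E2F7 are shown. They were chosen because each held a match and its gene had its highest mean labelled share in G1. E2F4 also had its highest mean labelled share in G1, and its window held no match. RB1 had its highest there as well, but its upstream promoter was not searched. The median gene had its highest share in G1 too. A link between matches and label was not tested. An E2F site was taken as TTTCCCGC, TTTGGCGC, TTTCGCGC or TTTGCCGC on either strand, and an E2F core as the same letters without the first T, so that every site holds a core. Capitals mark the sites and cores. A site was found in 3.31% of 35116 windows of this length and a core in 13.0%. The E2F1 window (chr20:33686336-33686635, minus strand) held 2 sites, both before the gene start, and the E2F2 window (chr1:23531184-23531483, minus strand) held 1. The upstream E2F3 window (chr6:20401629-20401928, plus strand) held 1 site and 1 further core.
E2F1: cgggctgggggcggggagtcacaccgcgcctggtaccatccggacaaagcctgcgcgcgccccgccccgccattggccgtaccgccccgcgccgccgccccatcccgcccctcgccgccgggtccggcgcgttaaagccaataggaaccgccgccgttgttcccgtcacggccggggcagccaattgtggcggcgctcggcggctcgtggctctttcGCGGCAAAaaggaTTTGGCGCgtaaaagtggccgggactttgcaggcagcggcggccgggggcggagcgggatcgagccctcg
E2F2: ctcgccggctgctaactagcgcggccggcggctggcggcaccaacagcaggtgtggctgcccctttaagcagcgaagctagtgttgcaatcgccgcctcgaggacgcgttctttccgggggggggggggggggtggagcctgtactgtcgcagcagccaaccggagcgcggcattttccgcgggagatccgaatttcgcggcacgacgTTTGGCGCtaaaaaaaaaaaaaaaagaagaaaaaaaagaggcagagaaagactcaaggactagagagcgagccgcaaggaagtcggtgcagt
E2F3: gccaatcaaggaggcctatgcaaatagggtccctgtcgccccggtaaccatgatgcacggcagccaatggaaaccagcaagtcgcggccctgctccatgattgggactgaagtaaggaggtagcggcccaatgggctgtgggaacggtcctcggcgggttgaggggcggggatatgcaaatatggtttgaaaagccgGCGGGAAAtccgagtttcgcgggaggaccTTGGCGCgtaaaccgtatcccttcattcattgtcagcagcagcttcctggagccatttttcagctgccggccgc
E2F7: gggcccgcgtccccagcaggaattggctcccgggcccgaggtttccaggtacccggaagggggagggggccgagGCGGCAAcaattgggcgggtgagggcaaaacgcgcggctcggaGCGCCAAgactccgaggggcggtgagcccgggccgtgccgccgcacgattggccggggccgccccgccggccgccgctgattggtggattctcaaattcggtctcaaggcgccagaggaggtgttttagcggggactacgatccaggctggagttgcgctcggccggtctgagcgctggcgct
The E2F7 window (chr12:77065520-77065819, minus strand) held 2 cores and no site. The E2F6 window held 1 core, while the windows of E2F4 and of a second E2F3 start held neither. The only RB1 window (chr13:48476200-48476499, plus strand) lies downstream of another counted RB1 region (chr13:48360042-48360127) and close to the main 3′ end region. It held neither and is not shown. These matches describe letters and not binding.

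The libraries held 16096695 to 21803972 reads in the counted regions. The percentage of T>C reads was 22.3 ± 0.740 (SD, n = 3) in G1 and 18.4 ± 0.516 in Early_S. It was 10.0 ± 0.0870 in Late_S, 10.1 ± 0.336 in G2 and 1.01 ± 0.0179 without alkylation. As a check of the gates, the summed level of 6 genes of G2 and mitosis spanned 562 to 601 CPM in G1, 745 to 765 CPM in Early_S, 1251 to 1399.6 CPM in Late_S and 1691 to 1738 CPM in G2 (CPM, normalised reads per 1000000 reads), with no overlap. As a check of the cells, 7 bone and mesenchymal markers summed to 5139.8 to 6161 CPM in the sorted gates, although COL1A2 had 40 reads in all. Of these markers, 5 had a mean above 1 CPM in G1 and 6 in each other gate, and abundant ones can carry the sum. The 5 blood markers summed to at most 5.12 CPM and the 6 epithelial and endothelial markers to at most 20.9 CPM.

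All reads of a gene give its steady-state level, and T>C reads scaled against the bulk of T>C reads give its nascent level, both in CPM. The percentage of a gene's reads that are T>C reads is its labelled share. The share was tested as the ratio of T>C to other reads relative to the typical gene. At steady state 7 of 9 members differed across the 4 gates (edgeR quasi-likelihood test, adjusted p under 0.05), where 34.1% of 13755 genes did. E2F5 (adjusted p = 0.544) and E2F8 (adjusted p = 0.131) did not pass. The nascent level of 2 of 8 tested members differed, E2F1 and E2F3, against 10.4% of 11474 genes. The labelled share of 4 of 8 differed, E2F1, E2F4, E2F6 and E2F7, against 14.7% of 11437 genes. E2F5 had too few T>C reads for either test. T>C reads per 1000000 reads, a scale that keeps the drop in total label, differed for 7 of 8 members, all but RB1 (adjusted p = 0.504), against 55.3% of genes.

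**Figure D1:**
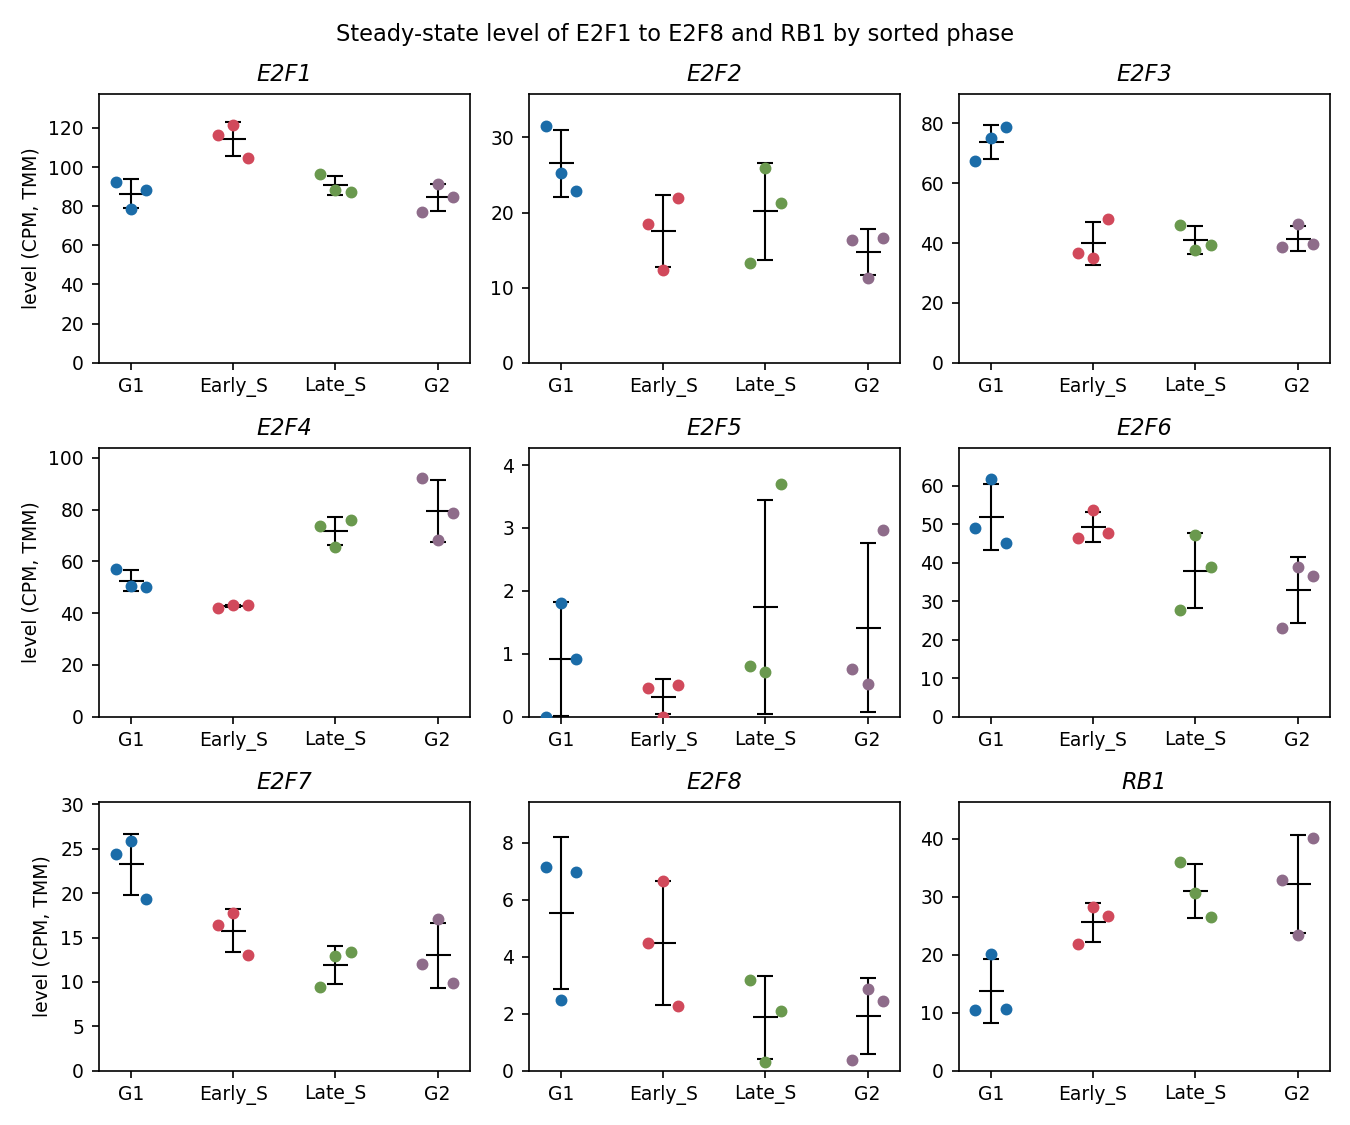
Steady-state level (CPM, y axis) of the 9 members in the 4 gates (x axis); points are libraries, and bars the mean and SD of 3 libraries. E2F1 was highest in Early_S, E2F2, E2F3, E2F6 and E2F7 had their highest mean in G1, and E2F4 and RB1 their highest mean in G2.

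Between G1 and G2 the steady-state level of 6 members was called different, where 21.1% of genes were: E2F2, E2F3, E2F6 and E2F7 fell, and E2F4 and RB1 rose. Early_S against G1 called 3 members (E2F1 and RB1 higher, E2F3 lower), against 24.3% of genes. Late_S against G1 called 4 (E2F4 and RB1 higher, E2F3 and E2F7 lower), against 19.9%. Late_S against Early_S called 2 (E2F4 higher, E2F1 lower), against 11.2%, and G2 against Early_S called 3 (E2F4 higher, E2F1 and E2F6 lower), against 19.3%. Between Late_S and G2 no member was called in level, nascent level or share, where 0.145%, 0.0523% and 0.0437% of genes were.

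E2F1, the activator most closely tied to S phase entry, had its highest message level in Early_S, while its labelled share was highest in G1 and fell steeply after it. Its reads lie in 1 region (chr20:33675683-33676731, minus strand, hg38), with 1278 to 2337 reads per library. The steady-state level was 92.6, 78.3 and 88.2 CPM in the G1 libraries and 117, 121 and 105 CPM in Early_S. It was 96.4, 88.1 and 87.4 CPM in Late_S and 77.2, 91.3 and 84.7 CPM in G2. All 3 Early_S libraries lay above every other library, and the other gates overlapped. Early_S exceeded G1 1.32-fold (log2 0.40 ± 0.11, SE; adjusted p = 0.00673), and G2 lay 0.44 ± 0.11 below Early_S on the log2 scale (adjusted p = 0.00442). The first call was lost without G1 replicate 2 (log2 0.33, adjusted p = 0.0545). The fall from Early_S to Late_S (log2 -0.33 ± 0.11, adjusted p = 0.0467) was lost in 8 of 12 fits that left out a library (adjusted p 0.0501 to 0.158): without G1 replicate 1 or 3, Early_S replicate 1 or 2, any Late_S replicate, or G2 replicate 3.

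The T>C reads of E2F1 took another course than its level. They numbered 440, 396 and 507 in the G1 libraries and 192, 219 and 105 in Early_S, and then 35, 69 and 76 in Late_S and 26, 66 and 113 in G2. No_alkylation had 3, 10 and 14. The labelled share was 26.8, 27.7 and 33.1% in G1 and 8.22, 10.2 and 6.36% in Early_S, and then 1.97, 3.98 and 3.98% in Late_S and 1.84, 3.78 and 6.07% in G2. Every G1 library lay above every Early_S library, and every Early_S library above every Late_S and G2 library. Relative to the typical gene the ratio of T>C to other reads was lower than in G1 by 1.82 ± 0.38 on the log2 scale in Early_S (adjusted p = 0.00366), by 2.08 ± 0.39 in Late_S (adjusted p = 0.000982) and by 1.86 ± 0.39 in G2 (adjusted p = 0.00274). On the same scale neither Late_S against Early_S (-0.26 ± 0.39, adjusted p = 0.795) nor G2 against Early_S (-0.04 ± 0.40, adjusted p = 0.971) passed. Over the members, the share called 2, 4 and 2 in these comparisons with G1, where 5.31%, 7.58% and 8.76% of genes were called.

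E2F1 had 25.3 ± 3.76 T>C reads per 1000000 reads (SD, n = 3) in G1 and 9.29 ± 2.75 in Early_S, and then 2.98 ± 0.929 in Late_S and 3.39 ± 1.88 in G2. This was 8.46-fold lower in Late_S than in G1 (log2 -3.08 ± 0.41, adjusted p = 8.87e-07), while the median of all genes stood at -1.22. On that scale 7 of 8 members were lower in Late_S than in G1 and 7 of 8 in G2 than in G1, and 50.9% and 52.9% of genes were. Early_S was lower than G1 for 3 members, where 6.73% of genes were. Late_S and G2 were lower than Early_S for 3 and 5 members, against 34.3% and 36.2% of genes. G2 was lower than Late_S for none, against 0.0261%.

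The nascent level of E2F1, which sets its T>C reads against those of other genes, was 104, 101 and 120.4 CPM in G1, 49.5, 69.6 and 35.7 CPM in Early_S, 19.3, 34.7 and 35.3 CPM in Late_S and 14.3, 37.3 and 50.3 CPM in G2. The G1 libraries were the highest. Early_S against G1 did not pass (log2 -1.07 ± 0.39, adjusted p = 0.137). Late_S was lower than G1 by 1.86 ± 0.41 on the log2 scale (adjusted p = 0.00400), where 5.36% of genes were called. G2 was lower by 1.67 ± 0.41 (adjusted p = 0.00855), where 7.29% of genes were called, and this was lost without G1 replicate 3 (adjusted p = 0.0528). G2 against Early_S called no member in the nascent level, against 5.85% of genes, and none in the share, against 10.6%.

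**Figure D2:**
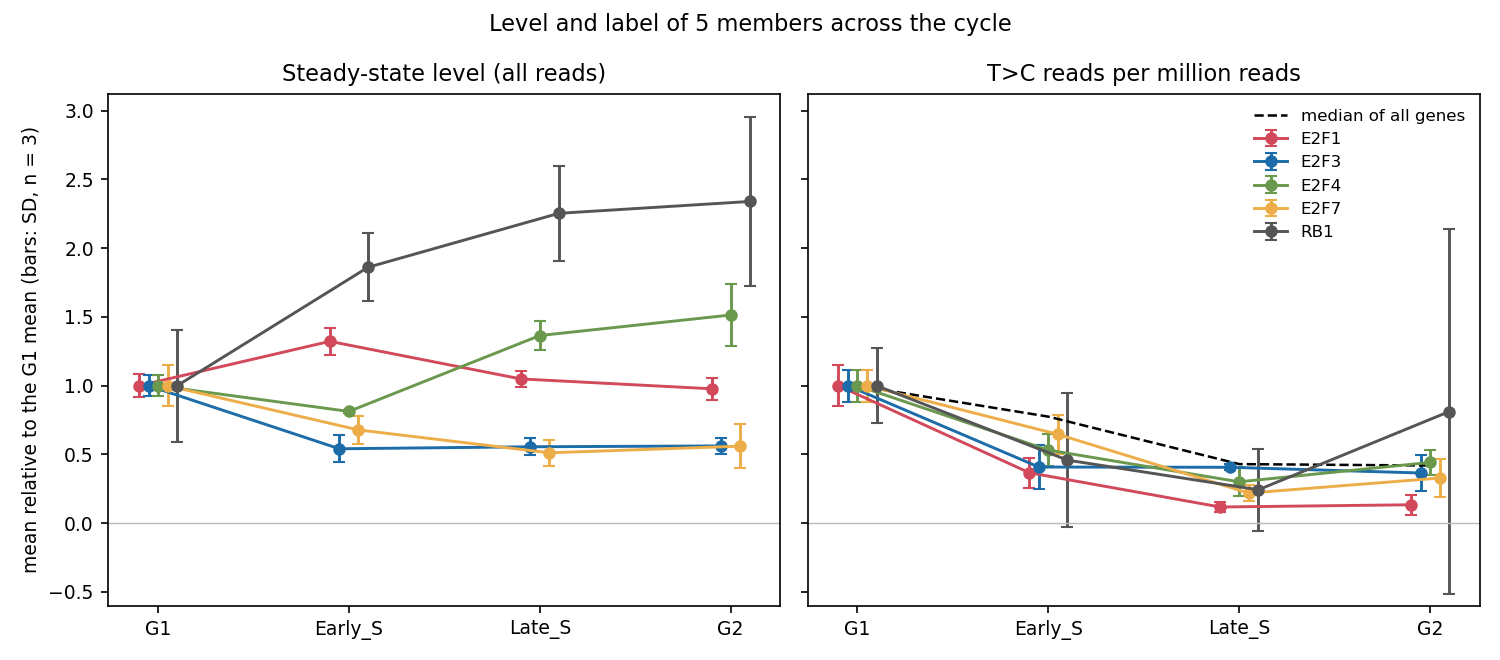
Mean of E2F1, E2F3, E2F4, E2F7 and RB1 in each gate relative to the G1 mean, for all reads (left) and for T>C reads per 1000000 reads (right); bars are SD of 3 libraries and the dashed line is the fitted median change of all genes. E2F1 kept its level in Late_S and G2 near that of G1 while its T>C reads lay below the median gene, and the wide RB1 bar in G2 comes from 1 library.

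E2F2, an activator like E2F1, had 215 to 577 reads per library (chr1:23506430-23509879, minus strand) and was highest in G1. Its level was 31.6, 25.2 and 22.9 CPM in G1 and 18.4, 12.3 and 21.9 CPM in Early_S. It was 13.2, 26.0 and 21.3 CPM in Late_S and 16.4, 11.2 and 16.6 CPM in G2. All G1 libraries lay above all Early_S and G2 libraries, but not above all of Late_S. G2 was 1.80-fold below G1 (log2 -0.85 ± 0.25, adjusted p = 0.0119), and Early_S against G1 stood at -0.60 ± 0.25 without passing (adjusted p = 0.0776). The test across gates (adjusted p = 0.0361) was lost without G1 replicate 1 (0.214), G1 replicate 2 (0.0592) or G2 replicate 2 (0.100). The fall from G1 to G2 was lost without G1 replicate 1 (0.0916) or G2 replicate 2 (0.0797), and Early_S against G1 passed without Early_S replicate 3 (log2 -0.79, adjusted p = 0.0443).

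Most E2F2 reads were T>C reads in the first gates. The labelled share was 68.4, 72.0 and 73.4% in G1 and 61.5, 65.3 and 81.2% in Early_S, and then 52.9, 40.7 and 30.3% in Late_S and 41.3, 31.6 and 37.0% in G2. No_alkylation held 1 T>C read of 1307 reads. The Late_S and G2 libraries lay below all G1 and Early_S libraries. Relative to the typical gene, whose share also dropped, the share did not pass (adjusted p = 0.603 across gates), and neither did the nascent level (adjusted p = 0.601). T>C reads per 1000000 reads fell from 18.9 ± 2.38 in G1 to 5.56 ± 1.67 in G2 (log2 -1.76 ± 0.34, adjusted p = 0.000138), beside a median of -1.25 over all genes.

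E2F3, the remaining activator, dropped between G1 and Early_S, and no later pair of gates passed. Its reads lie in 1 region (chr6:20490431-20493715, plus strand), and 6.10% of them mapped to more than 1 place. The level was 67.5, 75.2 and 78.7 CPM in G1 and 36.6, 35.0 and 48.2 CPM in Early_S. It was 46.2, 37.6 and 39.2 CPM in Late_S and 38.5, 46.3 and 39.6 CPM in G2. Each G1 library lay above all others, and the other 3 gates overlapped. Early_S was 1.85-fold below G1 (log2 -0.89 ± 0.15, adjusted p = 2.17e-05), and Late_S (-0.85 ± 0.15, adjusted p = 4.81e-05) and G2 (-0.83 ± 0.15, adjusted p = 5.89e-05) were also below G1.

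The nascent level of E2F3 was lowest in Early_S. It was 182, 209 and 220.4 CPM in G1, 83.5, 83.3 and 153 CPM in Early_S, 197, 179 and 203 CPM in Late_S and 123, 164 and 234 CPM in G2. All Early_S libraries lay below those of G1 and Late_S. The fall from G1 (log2 -0.94 ± 0.24, adjusted p = 0.0159) and the rise to Late_S (0.86 ± 0.24, adjusted p = 0.0426) were called, where 5.17% and 3.53% of genes were. Without G1 replicate 2 or 3 or Early_S replicate 1 or 2 the test across gates (0.0343) was lost (adjusted p 0.0676 to 0.213), as was the fall (adjusted p 0.0559 to 0.121). The rise was lost without any 1 of the G1 or Late_S libraries or Early_S replicate 1 or 2 (adjusted p 0.0537 to 0.225). G2 against Early_S (adjusted p = 0.0849) passed without Early_S replicate 3 (0.0136) or G2 replicate 1 (0.0294).

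On the scale of all reads E2F3 showed no such rise. T>C reads per 1000000 reads were 47.5 ± 5.46 in G1 and 19.4 ± 7.51 in Early_S, and then 19.3 ± 1.01 in Late_S and 17.3 ± 6.08 in G2. Late_S against Early_S stood at -0.00 ± 0.25 (adjusted p = 0.992), and the median gene at -0.86. The labelled share was 64.5, 59.7 and 67.9% in G1 and 44.1, 42.1 and 59.3% in Early_S, and then 41.9, 48.2 and 50.9% in Late_S and 31.7, 32.6 and 60.4% in G2, where replicate 3 stood above the others. Relative to the typical gene, Late_S against Early_S stood at 1.07 ± 0.36 (adjusted p = 0.0749) and passed without Early_S replicate 3 (0.0414) or G2 replicate 3 (0.0262).

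E2F4, a repressor known from resting cells, had its lowest level in Early_S and higher levels in the last gates. Of its reads, 99.8% lie in 1 of 6 regions (chr16:67198124-67198918, plus strand). The level was 57.2, 50.3 and 50.2 CPM in G1 and 42.1, 43.0 and 43.1 CPM in Early_S. It was 73.8, 65.4 and 76.0 CPM in Late_S and 92.0, 68.1 and 78.6 CPM in G2. Early_S libraries were the lowest, and all Late_S and G2 libraries lay above all G1 libraries. G2 exceeded Early_S 1.86-fold (log2 0.90 ± 0.14, adjusted p = 3.54e-06) and G1 1.51-fold (0.60 ± 0.13, adjusted p = 0.000883). Late_S exceeded Early_S by 0.75 ± 0.14 (adjusted p = 0.000122). Late_S against G1 (0.45 ± 0.13, adjusted p = 0.0139) lost its call without G1 replicate 3 (0.0624), Late_S replicate 1 (0.0525) or Late_S replicate 3 (0.0700). Early_S against G1 stood at -0.30 ± 0.14 (adjusted p = 0.108).

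In E2F4 the labelled share was lower in Late_S and G2 than in G1, while the level was higher there. Both fell in the mean from G1 to Early_S. T>C reads numbered 486, 555 and 419 in G1 and 358, 202 and 245 in Early_S, and then 142, 111 and 245 in Late_S and 246, 171 and 297 in G2. The labelled share was 47.9, 60.5 and 48.1% in G1 and 42.4, 26.4 and 36.1% in Early_S, and then 10.4, 8.62 and 14.7% in Late_S and 14.6, 13.1 and 17.2% in G2. The libraries of G1, Early_S and Late_S did not overlap, and those of Late_S and G2 did. Relative to the typical gene the ratio of T>C to other reads was lower in Late_S than in G1 by 1.58 ± 0.35 on the log2 scale (adjusted p = 0.00483). Without G1 replicate 2 this was lost (0.0505), and the test across gates went from 0.0142 to 0.0728. G2 against G1 stood at -1.07 ± 0.35 (adjusted p = 0.0589). The nascent level was 119 ± 21.4 CPM in G1, 79.9 ± 14.3 CPM in Early_S, 82.6 ± 29.3 CPM in Late_S and 121 ± 21.4 CPM in G2 and did not pass (adjusted p = 0.244).

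E2F5, the other repressor of that pair, was close to the limit of detection. It lies on chromosome 8 and had 0 to 81 reads per library, at most 3.70 CPM in a sorted library. T>C reads were seen in Early_S replicates 1 (9 of 9 reads) and 3 (7 of 8 reads) and in none of the other sorted libraries. No T>C read was found among 49 reads in G1, 110 in Late_S and 89 in G2, which allows shares of up to 6.12%, 2.73% and 3.37% (3 counts, counting error only). In No_alkylation 8 of 59 reads carried T>C, all in replicate 2. The T>C reads of E2F5 held on average 1 converted T each, in Early_S as in No_alkylation. In Early_S the other members had 1.29 (RB1) to 3.57 (E2F8) converted T per T>C read. The region overlaps that of C8orf59 on the opposite strand, whose reads cannot be told apart unless the counting used strand.

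E2F6, the RB-independent repressor, kept a high labelled share in all 4 gates. Of its reads, 94.8% lie in 1 of 8 regions (chr2:11444375-11446523, minus strand), and 45.5% mapped to more than 1 place, so that its level and its labelled share can include reads of similar sequences. The part of multimapped reads in the share was not tested. The level was 49.1, 61.7 and 45.2 CPM in G1 and 46.4, 53.8 and 47.7 CPM in Early_S. It was 27.7, 47.1 and 38.8 CPM in Late_S and 23.1, 38.9 and 36.6 CPM in G2. All G2 libraries lay below all G1 and Early_S libraries. G2 was 1.58-fold below G1 (log2 -0.66 ± 0.18, adjusted p = 0.00741), which was lost without G1 replicate 2 (0.0628) or G2 replicate 1 (0.0879). It was 1.50-fold below Early_S (-0.58 ± 0.18, adjusted p = 0.0207), which was lost without Early_S replicate 2 (0.0755) or G2 replicate 1 (0.175). Late_S against G1 (-0.46 ± 0.18, adjusted p = 0.0745) passed without Late_S replicate 2 (0.0250) or G2 replicate 1 (0.0477). With multimapped reads removed, G2 against G1 stood at -1.03 (adjusted p = 0.000770) and G2 against Early_S at -0.86 (adjusted p = 0.00566).

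The labelled share of E2F6 was 81.1, 85.2 and 81.0% in G1 and 83.7, 89.8 and 90.3% in Early_S. It was 76.5, 79.5 and 79.0% in Late_S and 74.1, 79.9 and 78.4% in G2, against 1.65, 0.110 and 0.564% in No_alkylation. Every G1 library lay above every Late_S and G2 library, by a few points. Relative to the typical gene, which lost more of its label, the ratio of T>C to other reads was higher than in G1 by 1.05 ± 0.29 in Early_S, 1.17 ± 0.29 in Late_S and 1.12 ± 0.29 in G2 on the log2 scale (adjusted p = 0.0312, 0.0102 and 0.0128). Scaled by total reads in place of the typical gene, the values for Late_S and G2 turned to -0.38 and -0.45 (adjusted p = 0.382 and 0.290), beside medians of -1.64 and -1.75 over all genes. All 3 calls were lost without G1 replicate 1 or 3 (adjusted p 0.0636 to 0.124), as was the test across gates (0.0112; 0.0880 and 0.0886). That of Early_S was also lost without Early_S replicate 2 (0.172) or 3 (0.121), and that of G2 without G2 replicate 2 (0.0579).

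The nascent level of E2F6 was 187 ± 50.3 CPM in G1, 235 ± 36.2 CPM in Early_S, 299 ± 78.2 CPM in Late_S and 263 ± 83.3 CPM in G2 and did not pass (adjusted p = 0.188). Late_S against G1 (0.68 ± 0.23, adjusted p = 0.0809) passed without G1 replicate 2 (0.0326), Late_S replicate 1 (0.0352) or G2 replicate 1 (0.0462).

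**Figure D3:**
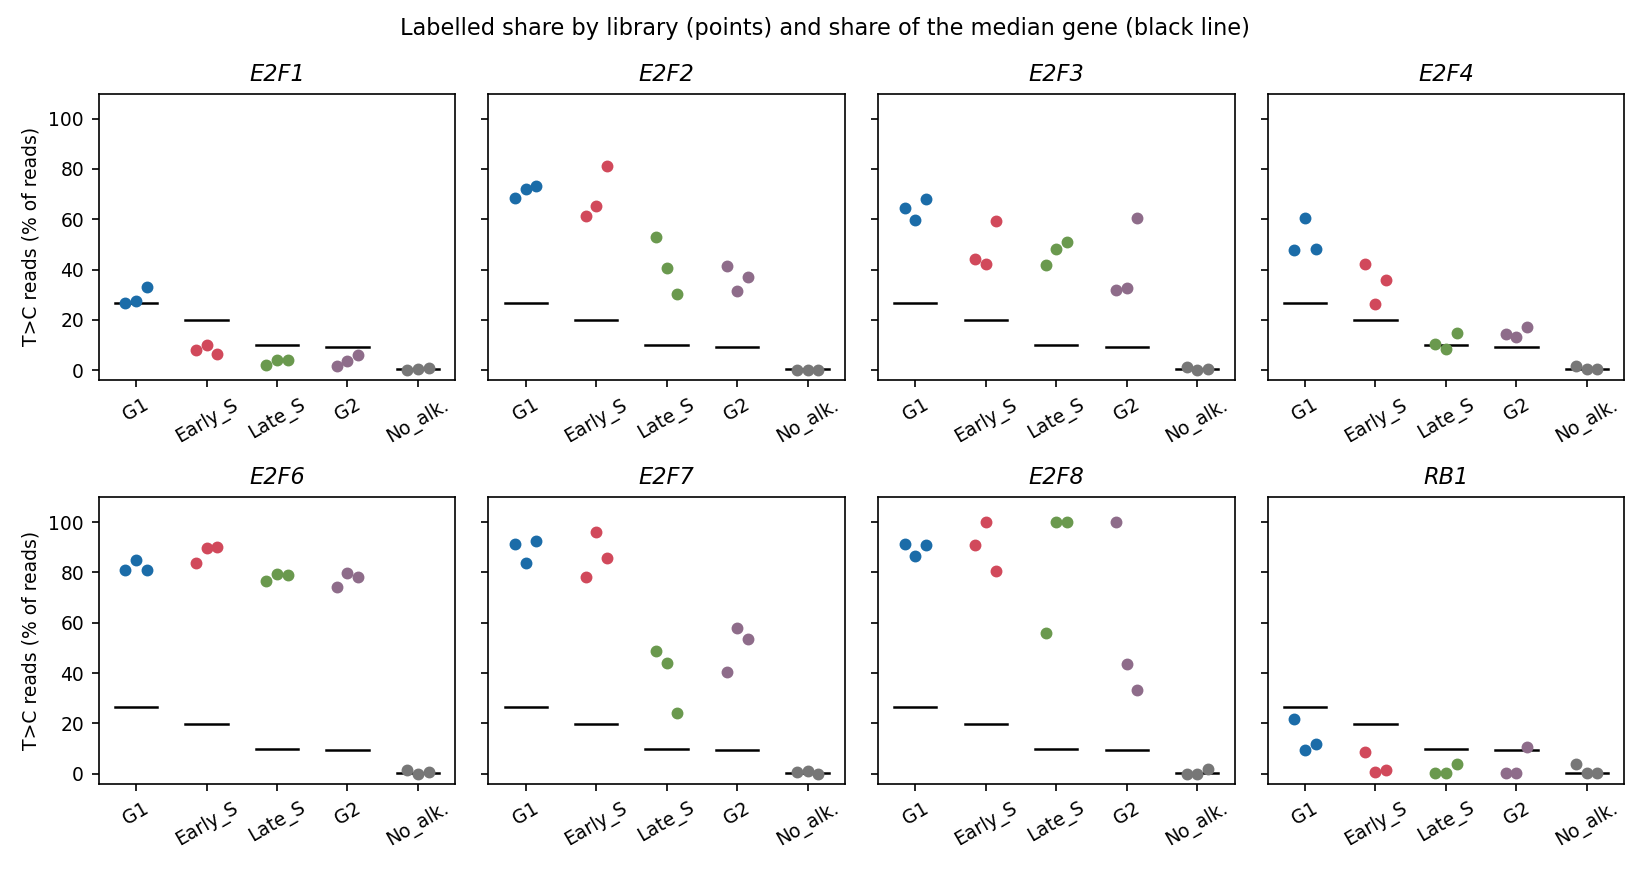
Labelled share (T>C reads as a percentage of a gene's reads, y axis) of 8 members in each library of the 5 groups (x axis); the black line is the share of the median gene of the group. E2F1 libraries lay below the median gene after G1, those of E2F2, E2F3, E2F6 and E2F7 above it in all 4 gates, and those of RB1 below it in G1, Early_S and Late_S.

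E2F7, an atypical repressor and E2F target, was highest in G1, where most of its reads were T>C reads. Its reads (chr12:77021247-77024138, minus strand, for 97.9% of them) numbered 174 to 473 per library. The level was 24.5, 25.9 and 19.4 CPM in G1 and 16.5, 17.8 and 13.1 CPM in Early_S. It was 9.43, 12.9 and 13.4 CPM in Late_S and 12.1, 17.1 and 9.93 CPM in G2. All G1 libraries lay above all others. Late_S was 1.95-fold below G1 (log2 -0.97 ± 0.26, adjusted p = 0.00539) and G2 1.79-fold (-0.84 ± 0.26, adjusted p = 0.0154). The latter was lost without G1 replicate 1 (0.0623), G1 replicate 2 (0.0674), G2 replicate 1 (0.0550) or G2 replicate 3 (0.0989). The test across gates (0.00867) was lost without G1 replicate 1 (0.0569) or 2 (0.0684).

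The labelled share of E2F7 was 91.5, 83.9 and 92.6% in G1 and 78.2, 96.2 and 85.9% in Early_S, and then 48.9, 44.1 and 24.3% in Late_S and 40.3, 57.8 and 53.7% in G2. Every library of Late_S and G2 lay below every library of G1 and Early_S. Relative to the typical gene the ratio of T>C to other reads fell by 2.43 ± 0.65 on the log2 scale from Early_S to Late_S (adjusted p = 0.0186), the only member called there, where 8.14% of genes were called. Late_S lay 2.26 ± 0.63 below G1 (adjusted p = 0.0265). The first was lost without Early_S replicate 2 (0.123) or Late_S replicate 3 (0.0969), and the second without G1 replicate 1 (0.102), G1 replicate 3 (0.112) or Late_S replicate 3 (0.132). The test across gates (0.0173) was lost without Late_S replicate 3 (0.0567). G2 against Early_S (-1.69 ± 0.64, adjusted p = 0.0994) passed without Early_S replicate 1 (-2.41, adjusted p = 0.0315). The nascent level of 89.7 ± 14.2 CPM in G1, 74.4 ± 19.5 CPM in Early_S, 45.4 ± 11.7 CPM in Late_S and 69.3 ± 32.6 CPM in G2 did not pass (adjusted p = 0.237).

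E2F8, the second atypical repressor, had 6 to 191 reads per library (chr11:19224063-19224657, minus strand). Its level was 7.16, 2.47 and 6.97 CPM in G1 and 4.49, 6.64 and 2.28 CPM in Early_S. It was 3.20, 0.305 and 2.10 CPM in Late_S and 0.382, 2.87 and 2.46 CPM in G2. The means were higher in the first gates, but the libraries overlapped and no contrast passed (G2 against G1, log2 -1.53 ± 0.71, adjusted p = 0.126). T>C reads were 265 of 293 reads in G1, 229 of 244 in Early_S, 85 of 111 in Late_S and 49 of 116 in G2. Its labelled share spread widely in the later gates, with 55.9, 100 and 100% in Late_S and 100, 43.6 and 33.3% in G2, and did not pass (adjusted p = 0.639). T>C reads per 1000000 reads were lower in G2 (0.834 ± 0.454) than in G1 (5.01 ± 2.48; log2 -2.58 ± 0.75, adjusted p = 0.00613). On that scale the median of all genes stood at -1.25, and 52.9% of genes were called lower.

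RB1 messages rose after G1, and few of its reads carried T>C. Of the reads, 95.5% lie in 1 of 3 regions (chr13:48480072-48481986, plus strand). The level was 10.4, 20.2 and 10.7 CPM in G1 and 21.7, 28.3 and 26.7 CPM in Early_S. It was 35.9, 30.6 and 26.4 CPM in Late_S and 32.9, 23.4 and 40.2 CPM in G2. Every later library lay above every G1 library. Early_S exceeded G1 1.86-fold (log2 0.89 ± 0.23, adjusted p = 0.00364), Late_S 2.25-fold (1.17 ± 0.23, adjusted p = 0.000212) and G2 2.34-fold (1.23 ± 0.23, adjusted p = 0.000101), and no later pair of gates passed.

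T>C reads of RB1 numbered 40, 35 and 22 in G1 and 38, 4 and 7 in Early_S, and then 2, 3 and 23 in Late_S and 1, 2 and 93 in G2. No_alkylation had 19, 1 and 2, or 0.199 to 3.78% of reads. The G1 libraries (21.7, 9.51 and 11.9%) all lay above that range, and 2 libraries each of Early_S, Late_S and G2 lay within it or below it. Over the 4 gates together the share did not pass against No_alkylation (log2 1.50 ± 1.03, adjusted p = 0.177), and it passed without No_alkylation replicate 1 (3.28, adjusted p = 0.0284). G2 replicate 3, with 93 T>C reads of 882, decided the G2 value: with it, G2 against G1 gave -1.78 ± 1.23 (adjusted p = 0.444), and without it -4.14 (adjusted p = 0.0429).

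Against No_alkylation the labelled share was higher for 7 of 9 members, where 83.8% of 12909 genes were higher. The log2 difference ran from 3.66 ± 0.45 for E2F1 to 10.26 ± 0.88 for E2F2. E2F5 (-0.84 ± 1.03, adjusted p = 0.469) and RB1 did not pass. Ranked over 12579 genes with at least 50 reads in G1, whose median share was 26.6%, E2F8, E2F7, E2F6, E2F2 and E2F3 had a higher labelled share than 99.0, 98.6, 96.8, 92.1 and 89.2% of genes. E2F4 exceeded 81.4%, E2F1 54.5% and RB1 20.6% of genes. In Late_S, E2F1 exceeded 12.7% and E2F4 56.0% of genes, whereas E2F3 exceeded 93.3% and E2F6 98.4%. The main regions of the members held 24.0% (E2F4) to 38.5% (RB1) T, the base that can convert, and the part of this in the order of the shares was not tested.

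The No_alkylation libraries differed from the mean of the 4 gates in the steady-state level of 5 members, where 43.5% of 13972 genes did. E2F1 was lower (log2 -0.32 ± 0.09, adjusted p = 0.00353), and E2F3 (0.70 ± 0.11, adjusted p = 6.60e-07), E2F4 (0.67 ± 0.10, adjusted p = 1.49e-07), E2F6 (0.51 ± 0.14, adjusted p = 0.00208) and E2F8 (1.30 ± 0.46, adjusted p = 0.0182) were higher. The E2F8 call was lost without No_alkylation replicate 3 (adjusted p = 0.170). The cells in these libraries and the missing chemical step cannot be told apart.

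Genes that E2F factors act with or on were taken from lists, of which the first and the second share CCNE1 and CCNE2. Of 24 E2F targets of the G1 to S step, 19 differed at steady state across gates, 15 in the nascent level and 11 in the labelled share, where 34.1%, 10.4% and 14.7% of all genes did. In Early_S against G1, 14 were lower and 5 higher at steady state, with a median log2 change of -0.38 beside -0.00 over all genes, of which 24.3% were called in either direction. Their nascent level was lower in Late_S than in G1 for 12 and higher for 0, with a median of -0.81 beside -0.00 over all genes, of which 5.36% were called in either direction. ATAD2, a chromatin ATPase, stood at 284 ± 7.96 CPM in G1, 172 ± 8.16 CPM in Early_S and 315 ± 13.8 CPM in Late_S (log2 -0.73 ± 0.08, adjusted p = 1.80e-09 for Early_S against G1). PCNA, the sliding clamp of DNA polymerases, fell from 237 ± 13.1 CPM in G1 to 124 ± 19.0 CPM in Early_S (log2 -0.94 ± 0.10, adjusted p = 2.87e-09), and UNG, a uracil glycosylase, from 174 ± 11.5 to 98.5 ± 5.06 CPM (log2 -0.82 ± 0.10, adjusted p = 4.21e-08). Reads mapping to more than 1 place made up 69.6% of all reads of UHRF1.

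All 8 cyclins and kinases acting on RB differed at steady state, 2 in the nascent level and 5 in the labelled share, beside the same 34.1%, 10.4% and 14.7% of all genes. Their directions were mixed at steady state: 3 were higher and 2 lower in Early_S than in G1, 2 higher and 2 lower in G2 than in G1, and 2 higher and 5 lower in G2 than in Early_S. Of all genes, 24.3%, 21.1% and 19.3% were called in either direction in these 3 comparisons. In the nascent level 2 were lower and 0 higher in Late_S than in G1, where 5.36% of genes were called in either direction. Of the 3 genes with the smallest p, CDK4 rose from 245 ± 16.9 CPM in G1 to 370.1 ± 41.6 CPM in Early_S (log2 0.60 ± 0.08, adjusted p = 6.15e-07), and CCND2, a D-type cyclin, from 341 ± 10.9 to 474 ± 4.37 CPM (log2 0.47 ± 0.07, adjusted p = 1.35e-06). CDK6 rose from 300.3 ± 23.1 CPM in G1 to 399 ± 27.3 CPM in G2 (log2 0.41 ± 0.08, adjusted p = 0.000142). Of 7 CDK inhibitors 5 could be tested and 3 differed at steady state, where 34.1% of all genes did. CDKN1A, the p53 target p21, fell from 682 ± 37.2 CPM in G1 to 149 ± 16.3 CPM in G2 (log2 -2.19 ± 0.08, adjusted p = 5.91e-23), whereas CDKN2C rose from 12.1 ± 1.67 to 29.2 ± 4.77 CPM (log2 1.26 ± 0.21, adjusted p = 1.63e-05). CDKN1B, or p27, rose from 17.9 ± 4.01 CPM in G1 to 31.8 ± 6.74 CPM in Early_S (log2 0.83 ± 0.21, adjusted p = 0.00283). CDKN2A, which encodes the CDK inhibitor p16, had 0 reads in all 15 libraries, which allows up to 3 reads.

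Among the partners of E2F proteins, TFDP1, which dimerises with typical E2Fs, rose from 111 ± 9.43 CPM in G1 to 143 ± 4.75 CPM in Early_S (log2 0.36 ± 0.10, adjusted p = 0.00700), and 27.2% of its reads were multimapped. TFDP2 did not pass at steady state (adjusted p = 0.414), and its nascent level differed across gates (adjusted p = 0.00461). TFDP3 had 45 reads in 15 libraries and was not tested. Of the other pocket proteins, RBL2, or p130, rose from 6.61 ± 1.59 CPM in G1 to 19.6 ± 3.11 CPM in Early_S (log2 1.57 ± 0.29, adjusted p = 5.15e-05). RBL1, or p107, at 7.81 ± 3.41 CPM in G1 and 5.93 ± 1.43 CPM in Early_S, did not pass (adjusted p = 0.568). In the E2F6 repressor complex 3 of 9 genes differed, a share near the 34.1% of all genes. MAX, a DNA-binding partner in it, stood at 132 ± 20.8 CPM in G1, 89.0 ± 2.17 CPM in Early_S and 194 ± 1.47 CPM in G2 (log2 0.55 ± 0.11, adjusted p = 0.000177 for G2 against G1), and MGA at 8.63 ± 1.65 CPM in Early_S and 21.2 ± 2.26 CPM in G2. RING1, a Polycomb ubiquitin ligase, was at 148 ± 17.1 CPM in G1 and 197 ± 17.3 CPM in Early_S.

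All 3 genes of E2F turnover differed at steady state and rose between G1 and G2. Of all genes, 34.1% differed across gates and 21.1% were called in either direction between G1 and G2. CCNF, or cyclin F, which targets activator E2Fs for degradation, rose from 81.5 ± 10.1 CPM in G1 to 214 ± 8.83 CPM in G2 (log2 1.39 ± 0.10, adjusted p = 1.47e-14). SKP2, a ubiquitin ligase subunit, rose from 86.7 ± 13.7 to 123 ± 7.89 CPM (log2 0.51 ± 0.11, adjusted p = 0.000404) and FZR1, an activator of the anaphase-promoting complex, from 14.0 ± 3.08 to 29.7 ± 5.72 CPM (log2 1.08 ± 0.24, adjusted p = 0.000654). The nascent level of CCNF was also higher in G2 than in G1 (log2 2.24 ± 0.14, adjusted p = 1.18e-12).

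**Figure D4:**
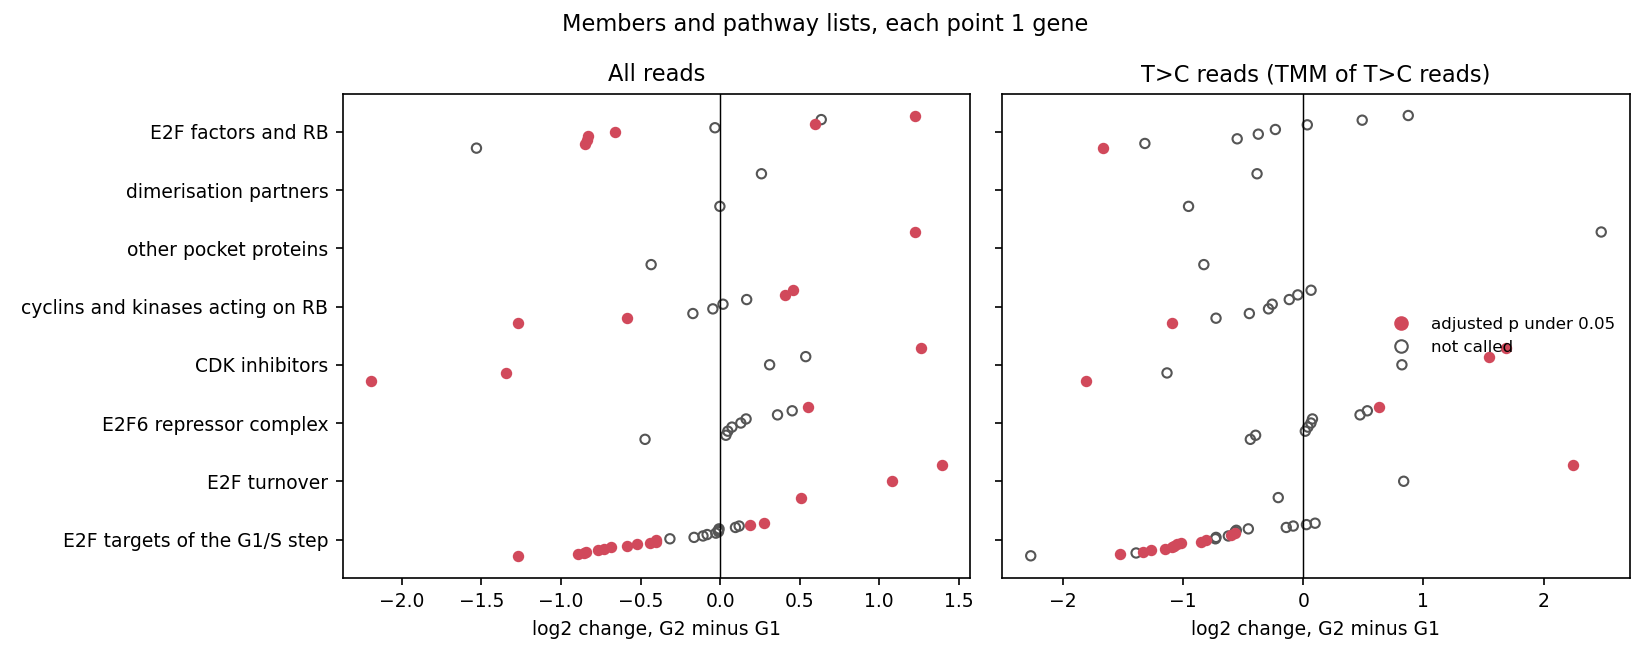
Log2 change from G1 to G2 (x axis) of the members and of 7 pathway lists (rows), for all reads (left) and for the nascent level (right); each point is 1 tested gene and filled points passed an adjusted p of 0.05. All filled nascent points of the G1 to S targets lie below 0, and among the members E2F1 is the filled one.

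The genes most like each member that passed at steady state were sought by Pearson's r of log2 CPM over the 12 alkylated libraries, among 11171 genes with at least 50 reads on average. The libraries of a gate share their sort, so r is a description. E2F1 was most like HSBP1 (0.93), POMGNT2 (0.93) and GPI (0.92), all highest in Early_S. E2F2 was most like ARMC5 (0.87), DUSP10 (0.86) and TIMM29 (0.86), and E2F3 like G3BP2 (0.95), AEN (0.95) and SLC16A1 (0.94). E2F4 was most like AGO2 (0.95), NSUN2 (0.95) and PSMC6 (0.94), all lowest in Early_S, and RB1 like MRPS10 (0.95), GBP1 (0.94) and DNM1L (0.94), all lowest in G1. E2F6 was most like RCAN1 (0.91), RABAC1 (0.90) and MATN3 (0.90), and E2F7 like IRF2BP2 (0.92), MED9 (0.92) and EEPD1 (0.92).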

How the data were processed

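Polyadenylated RNA (500 ng per library) was made into QuantSeq 3′ end libraries. Per the file headers, the authors obtained counts of reads and T>C reads per region with slamdunk 0.2.4, on hg38 and Ensembl release 90 per the submitters' processing notes. These deposited counts were used unscaled. The deposited CPM were used only for the library totals behind them, of which 58.9% to 69.7% lay in regions. The deposited conversion rate, a fraction, was not used for a printed result. How many conversions make a T>C read is not given in the sources used here.

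For each gene name its regions were added up. Level, nascent level and share were each fitted over all genes in edgeR 4.0.16 (R 4.3.3), quasi-likelihood, with 12 alkylated libraries, TMM factors and filterByExpr. That filter (minimum count 10, minimum total 15) does not ask for 10 reads in every library. Each fit had an F-test across gates and 6 two-sided contrasts, Benjamini-Hochberg adjusted and called at 0.05. The share fit compared T>C with other reads within libraries. The comparison of the share with No_alkylation scaled by total reads, and that of the level used TMM factors. Each SE was obtained by dividing the log2 change by the root of F. The fits were run on simulated counts with the same dispersion for every gene and changes only in G2 and in well-covered genes. This does not cover the wider spread of T>C reads between libraries in some members, and no result rests on it. Alternatives were RLE factors, total reads, DESeq2 1.42.0, other filters, a replicate block, no multimapped reads, the top region alone, and each library left out. In addition, the No_alkylation share was subtracted from each labelled share. Named genes are the members, up to 3 genes per list with the smallest steady-state p, all of a list of 3 or fewer, 3 like genes per called member, and UHRF1, COL1A2 and CDKN2A, chosen after their values were seen. Members and lists were chosen with earlier results of these data known. Reads carry no molecular identifiers, so limits cover counting error only.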

Additional observations from a re-analysis of the deposited data

How the results depend on the processing

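At steady state 7 members were called across gates under RLE factors, total reads, DESeq2, both filters, the top region, multimapped reads removed and the replicate block, and 5 to 7 when a library was left out. The 6 pairwise contrasts held 18 member calls at steady state, 4 in the nascent level and 9 in the share. With a library left out they held 15 to 19, 1 to 6 and 5 to 11, and 1 to 2 members were called across gates in the nascent level and 3 to 4 in the share. Scaling by total reads, under which the drop of all T>C reads counts for each gene, called 7 members and 25 contrasts in the nascent level and 22 contrasts in the share. Over all genes it called 6340 in place of 1193 in the nascent level and 7114 in place of 1683 in the share, and DESeq2 called 1843 in the nascent level. Nascent log2 values that changed sign with total reads and were called in either fit were -0.0043 (E2F3) and -0.82 (E2F4) in Late_S against Early_S, -1.18 (E2F4) and -0.73 (E2F6) in G2 against G1, and for E2F6 -0.52 in Late_S against G1 and -0.70 in G2 against Early_S. Shares that did so were -1.36 (E2F3) in G2 against G1 and, for E2F6, -1.04 in Late_S against Early_S, -0.45 in G2 against G1, -0.38 in Late_S against G1 and -1.11 in G2 against Early_S. A further 7 nascent values and 7 shares changed sign with no call in either fit. The main fits did not pair samples by replicate number. Same-numbered libraries of different gates had residual correlations of -0.017 to 0.031 at steady state (median 0.0083). In the nascent level these were -0.017 to 0.092 (median 0.0136). Libraries with different numbers had -0.033 to 0.019 (median -0.0029) and -0.062 to 0.040 (median -0.0024). Any pairing was therefore weak, with the medians of same-numbered libraries slightly higher. With the replicate block 7 members were called at steady state (19 contrasts), 2 in the nascent level (6) and 4 in the share (10). Of 3408 values under alternatives, 3263 were classed as unchanged, and 101 of these changed sign without a call in either fit. A tested value was unchanged if it kept its side of the threshold with no change of sign in a called value. A share less its No_alkylation share, which has no threshold, was unchanged if it moved by less than 1 SD. Contrast values called in neither fit count as unchanged and numbered 709 at steady state, 792 in the nascent level and 669 in the share. Members above No_alkylation were 7 to 8, and members that differed in level there 4 to 5, when a No_alkylation library was left out. Region usage was not tested, and its alternatives were not run. Depth limits E2F5, E2F8 and the T>C reads of RB1.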

Other observations

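Each member was counted mainly in 1 region, which held all reads of E2F1, E2F2, E2F3 and E2F8 and at least 94.8% of those of the other members. No member had 10% of its reads outside that region, so a change of transcript end between gates was not tested. In E2F6 the main region held 94.4 to 96.9% of reads in the G1 libraries and 95.7 to 96.5% in Early_S. It held 90.8 to 99.4% in Late_S and 85.1 to 91.5% in G2. Without multimapped reads E2F6 had 97.8 to 99.1% in G1, 98.9 to 100% in Early_S, 100% in Late_S and 86.0 to 96.1% in G2. With all reads the range was 89.8 to 100% for E2F7 in Early_S and 89.1 to 99.3% for RB1 in G2.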
